A study of Mus musculus with 36 samples.

Results

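The genes described here are Cybb, Cyba, Ncf1, Ncf4, Rac2 and Hvcn1, which encode parts of the NADPH oxidase of phagocytes and the proton channel that works beside it. They were taken from the table of all genes by symbol, and they are 6 of its 36172 entries. The oxidase is an enzyme complex that assembles at the membrane of activated phagocytes and passes electrons from NADPH to oxygen, which yields superoxide. Its membrane core, cytochrome b558, is made of gp91phox (Cybb), which carries the electrons, and p22phox (Cyba), which stabilises it. The cytosolic proteins p47phox (Ncf1, the organizer) and p40phox (Ncf4, which binds a phosphoinositide of phagosomes) move to this core on activation, together with a Rac GTPase, of which Rac2 is the form of blood and immune cells. Hvcn1 encodes the voltage-gated proton channel Hv1, which offsets the charge that the electrons carry across the membrane. In the brain, microglia are the main cells known to make this oxidase.

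Polyadenylated RNA was sequenced from the hippocampus of Cx3cr1-NuTRAP mice. In these mice a tamoxifen-dependent Cre recombinase driven by Cx3cr1 regulatory sequence (Cx3cr1 is expressed in microglia, other macrophages and monocytes) switches on a GFP tag on ribosomes. An antibody to GFP then pulls down the tagged ribosomes with their RNA (translating ribosome affinity purification, TRAP; "Pos" in the labels), while the input is homogenate kept back before the pulldown. The study asked how the age at which Cre is induced affects this model and the detection of changes with age. The young group had 10 inputs from Early Induction animals of 6 months (5 females, 5 males). The old early group had 12 inputs from Early Induction animals of 22 months (7 females, 5 males), and the old late group had 7 inputs from Late Induction animals of 22 months (5 females, 2 males). The 7 TRAP libraries came from those same 7 old late animals. TRAP libraries of the Early Induction groups were not analysed here, so changes with age were measured only in whole-tissue inputs. All groups carry the same genotype, and the ages at induction are not given in the sources used here.

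The library totals ran from 12.9 to 20.4 M estimated counts. A fixed list of 11 microglia genes summed to 280 to 325 CPM (counts scaled to a common library total) in young inputs, 339 to 395 in old early inputs, 355 to 449 in old late inputs and 6423 to 8619 in TRAP, and all 11 genes were called higher in TRAP. The 8 genes of a border macrophage list were all called higher in TRAP as well, with sums of 377 to 622 CPM against 24.0 to 56.0 in the inputs of the same animals. Of all genes tested, 30.4% were called higher in TRAP. Old early replicate 5 stood apart in its red cell genes, with a sum of 2308 CPM, and in its neutrophil genes, with 37.9 CPM. The sample numbers in the labels followed the groups. If they reflect the order in which libraries were handled, which the labels do not say, that order and the groups cannot be told apart.

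To show the DNA next to these genes, the 250 bases before the transcription start are printed below for the 3 genes that the RefSeq promoter table of GRCm38.p6 holds. They are Cybb (chrX:9469325-9469574, minus strand), Cyba (chr8:122432941-122433190, minus strand) and Ncf1 (chr5:134229626-134229875, minus strand). Cybb and Cyba rose with age in the inputs and Ncf1 was not called. Each sequence runs 5′ to 3′ along the strand of its gene and ends at the base before the start. Capitals mark the motif of GAAA, any 2 bases and GAAA again, on either strand, which is a core of sites for interferon regulatory factors such as IRF8.
Cybb: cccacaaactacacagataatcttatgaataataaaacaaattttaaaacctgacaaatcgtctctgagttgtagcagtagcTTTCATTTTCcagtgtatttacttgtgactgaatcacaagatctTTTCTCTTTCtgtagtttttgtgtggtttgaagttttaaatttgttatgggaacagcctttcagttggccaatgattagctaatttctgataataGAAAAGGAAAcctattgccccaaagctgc
Cyba: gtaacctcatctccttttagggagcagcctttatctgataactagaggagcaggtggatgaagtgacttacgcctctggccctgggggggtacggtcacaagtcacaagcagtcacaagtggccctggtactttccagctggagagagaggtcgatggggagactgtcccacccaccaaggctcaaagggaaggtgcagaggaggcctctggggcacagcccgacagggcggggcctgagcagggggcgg
Ncf1: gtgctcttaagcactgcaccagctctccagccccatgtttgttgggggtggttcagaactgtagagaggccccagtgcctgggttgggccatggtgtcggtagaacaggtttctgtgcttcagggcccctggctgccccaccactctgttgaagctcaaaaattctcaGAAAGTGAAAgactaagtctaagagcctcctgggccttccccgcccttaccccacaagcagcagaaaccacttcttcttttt

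The motif occurred 3 times in the Cybb window, 0 times in the Cyba window and 1 time in the Ncf1 window. At least 1 match was found in 3.0% of 32851 mouse promoter windows of the same length. In the Cybb window the matches began 168, 124 and 29 bases before the start, and in the Ncf1 window 82 bases before it. GC content was 34% for Cybb, 60.0% for Cyba and 54.4% for Ncf1. The motif GAGGAA, a core of PU.1 sites, and the motif of GGAA, any 2 bases and GAAA, a composite of both factors, had no match in these 3 windows on either strand. They occurred in 23.3% and 2.3% of all windows. These are matches of letters and do not show binding.

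In the deposited coordinates, Cybb lies at chrX:9435252-9469324, Cyba at chr8:122424771-122432940 and Ncf1 at chr5:134220260-134229625, all on the minus strand. Ncf4 lies at chr15:78244811-78262580 on the plus strand, Rac2 at chr15:78559169-78572783 on the minus strand and Hvcn1 at chr5:122209737-122242297 on the plus strand. Hvcn1 overlaps Tctn1 on the opposite strand, and strand handling in the counting is not given in the sources used here. Its level may therefore include reads of Tctn1. None of the other 5 genes overlaps another entry of the table.

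Levels differed widely between the 6 genes. Set per kilobase of merged exon (GENCODE M21 models), the mean level in TRAP was 229 ± 62.4 CPM per kb for Cyba (SD, n = 7, as for the next values). It was 73.9 ± 11.3 for Ncf1, 38.01 ± 12.0 for Hvcn1, 21.8 ± 4.54 for Rac2, 15.1 ± 4.46 for Ncf4 and 10.1 ± 6.70 for Cybb. The intervals of 1 SD around the means did not overlap between Cyba and Ncf1 or between Ncf1 and Hvcn1. They overlapped between Hvcn1 and Rac2, Rac2 and Ncf4, and Ncf4 and Cybb. In young inputs the per-kilobase level was again highest for Cyba, at 6.75 ± 0.825 CPM per kb (SD, n = 10), and lowest for Cybb, at 0.123 ± 0.056. Hvcn1 (3.91 ± 0.384) and Ncf1 (3.30 ± 0.550) overlapped between these, followed by Rac2 (0.729 ± 0.134) and Ncf4 (0.390 ± 0.173). Cyba and Cybb, whose proteins form 1 core, thus stood at opposite ends of the order in both kinds of library. Cybb and Ncf4 rested on few reads in young inputs, with 6 to 20 and 6 to 23 estimated counts per library, so that counting error adds to their spread there.

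TRAP libraries held much more of each gene than the input of the same animal. Cybb was at 16.5 to 116 CPM in TRAP (median 48.7, n = 7) and at 1.22 to 7.03 CPM in input (median 3.66). Cyba was at 164 to 329 CPM (median 233) against 11.01 to 20.2 (median 15.3). Among the cytosolic components, Ncf1 was at 228 to 353 CPM (median 263) against 11.7 to 17.5 (median 14.6). For these 3 genes, as for the other 3, the lowest TRAP library lay above the highest input. Such separation of libraries was counted only for the oxidase genes, here and below, so its share over all genes is not known. Ncf4 was at 20.96 to 44.0 CPM (median 29.8) against 1.21 to 3.30 (median 1.66). Rac2 was at 50.4 to 89.2 CPM (median 61.2) against 2.28 to 5.03 (median 4.62). Hvcn1, the proton channel, was at 89.4 to 196 CPM (median 123) against 11.7 to 18.8 (median 15.6).

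**Figure D1:**
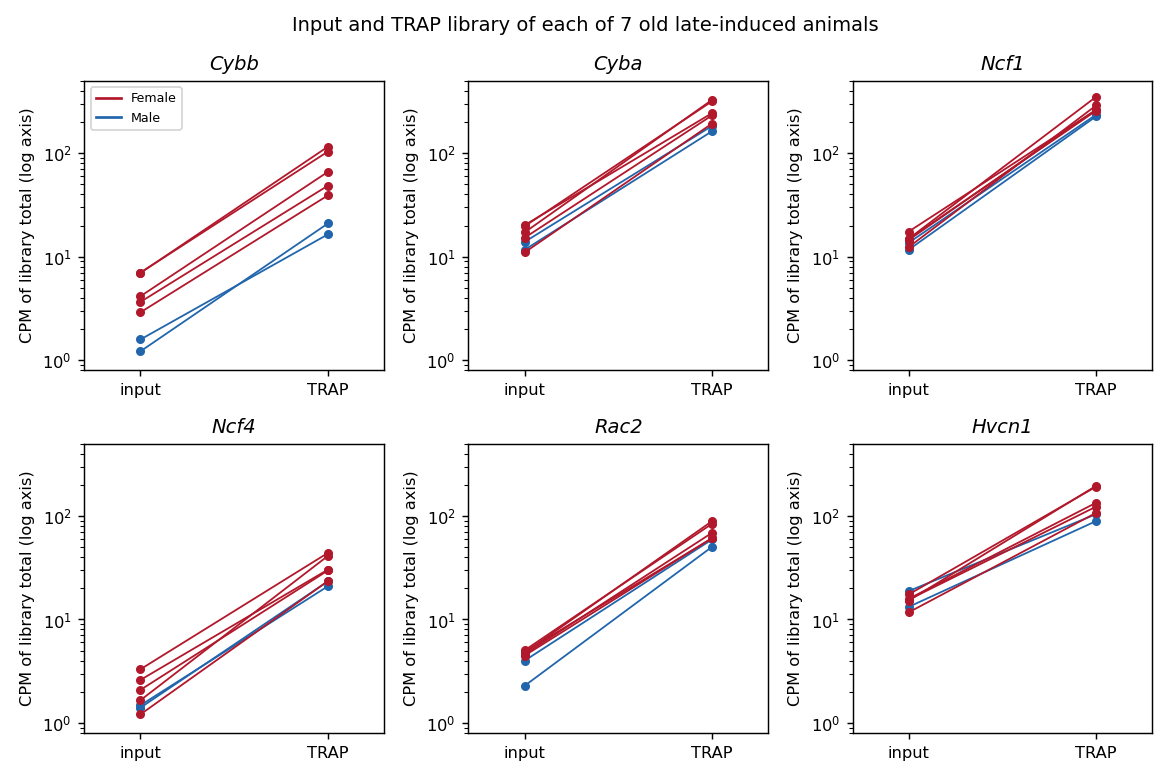
Level of each gene (CPM, log axis) in the input and the TRAP library of the 7 old late animals, joined by 1 line per animal and coloured by sex. Every line rises; for Cybb the 2 males start and end below the 5 females.

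The ratio of TRAP to input within an animal exceeded 1 in 7 of 7 animals for each gene. It ran from 15.02 to 23.59 for Ncf1, from 12.12 to 19.11 for Cyba, from 10.39 to 17.21 for Cybb, from 11.65 to 24.84 for Ncf4 and from 12.54 to 22.06 for Rac2. For Hvcn1 it ran from 5.54 to 12.89. With edgeR's quasi-likelihood test and Benjamini-Hochberg adjustment over all genes, 6 of 6 genes were called higher in TRAP at an adjusted p under 0.05, where 30.4% of the 14596 genes tested were. The log2 fold change was 4.00 ± 0.29 (SE) for Cybb with an edgeR adjusted p of 2.65e-09, and 4.04 ± 0.16 for Cyba with 6.61e-13. It was 4.36 ± 0.10 for Ncf1 (adjusted p 2.25e-15), 4.07 ± 0.20 for Ncf4 (1.45e-11) and 4.10 ± 0.13 for Rac2 (5e-14). Hvcn1 had the smallest of the 6, 3.22 ± 0.18 (edgeR adjusted p 8.81e-11), for counts that may include reads of Tctn1. The median over the 6 genes was 4.05, beside 4.29 over the microglia list, 3.83 over the border macrophage list and -0.02 over all genes.

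A second fit scaled the libraries to the microglia list, so that a gene that followed the mean of the list has a value near 0. The list holds Cx3cr1, P2ry12, P2ry13, Tmem119, Csf1r, Siglech, Gpr34, Sall1, Olfml3, Selplg and Fcrls. In TRAP the 11 genes of the list themselves ran from -1.213 to 0.277 on this scale (median 0.155). Of them 5 were called higher and 1 lower. Relative to that list Hvcn1 was lower in TRAP, at -0.93 ± 0.12 (edgeR adjusted p 1.53e-07), again for counts that may include reads of Tctn1. This scaling placed the median of all genes at -4.15, and 98% of genes were called lower and 0.206% higher. Ncf1 was at 0.21 ± 0.10 (edgeR adjusted p 0.0417), a call that held in 4 of 14 fits that left out 1 library (without TRAP replicate 5 or input replicate 2, 6 or 7) and was lost in the other 10. It was at -0.01 when the median of the list was used, and its adjusted p was 0.19 relative to the pan-myeloid list (97.9% of genes called). The other 4 genes were not called, with 95% intervals of -0.33 to 0.11 for Cyba, -0.61 to 0.26 for Cybb, -0.43 to 0.28 for Ncf4 and -0.29 to 0.20 for Rac2. Cyba alone among them was called, as lower, when the median of the microglia list was used (-0.33, edgeR adjusted p 0.00805).

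Other cells known to make this oxidase could add to the pulldown, and their markers are given beside it. The neutrophil list of 11 genes summed to 2.39 to 4.43 CPM in TRAP and 10.1 to 16.9 CPM in the matching inputs. Most of that sum was Cxcr2, at 1.96 to 2.98 CPM in TRAP. Ly6g was listed at 0 in all 36 libraries and Elane in all but 1. Of 6 B cell genes, 2 were tested and both were higher in TRAP (Blnk 3.56 and Cd79b 3.91 on the log2 scale), where 30.4% of all genes were. The other 4 had too few counts to be tested. Of 7 genes of the monocyte list 4 were tested. Ccr2, at 0.963 to 1.64 CPM in TRAP against 0.123 to 0.484 CPM in input, and Ly6c2, at 1.42 to 2.62 against 0.457 to 1.52 CPM, were higher in TRAP (2.04 and 0.97 on the log2 scale). Vcan and Nr4a1 were lower (-0.98 and -0.35). The part of border macrophages and monocytes in the pulled-down RNA was not tested.

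With age, the membrane core, p40phox and Rac2 rose in whole-tissue input, while Ncf1 and Hvcn1 were not called. In bulk tissue, more cells of a type and more RNA per cell cannot be told apart. The old late and young groups differed in age and also in induction, which cannot be told apart between them, here and below. Cybb was at 0.353 to 1.22 CPM in young inputs (median 0.663, n = 10), 0.542 to 3.21 in old early inputs (median 1.99, n = 12) and 1.22 to 7.03 in old late inputs (median 3.66, n = 7). Of the old inputs, 11 of 12 early and 6 of 7 late lay above every young one. The exceptions were old early replicate 6 and old late replicate 1, both male. Cyba was at 5.74 to 8.48 CPM in young inputs (median 7.04), 9.88 to 15 in old early inputs (median 12.7) and 11.01 to 20.2 in old late inputs (median 15.3). For Cyba every old input lay above every young one.

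Of the cytosolic components, Ncf4 was called higher with age and Ncf1 was not. Ncf4 was at 0.364 to 1.36 CPM in young inputs (median 0.794), 1.12 to 2.00 in old early inputs (median 1.70) and 1.21 to 3.30 in old late inputs (median 1.66). Above the highest young value were 9 of 12 old early and 6 of 7 old late inputs. Ncf1 was at 7.82 to 14.7 CPM in young inputs (median 12.7), 9.40 to 15.1 in old early inputs (median 13.4) and 11.7 to 17.5 in old late inputs (median 14.6), and its groups overlapped over most of their range. Only 2 of 12 old early and 3 of 7 old late inputs exceeded every young one. Rac2 was at 1.40 to 2.80 CPM in young inputs (median 2.21), 2.45 to 4.29 in old early inputs (median 3.35) and 2.28 to 5.03 in old late inputs (median 4.62), with 9 of 12 and 6 of 7 above the young range. Hvcn1 was at 11.9 to 16.3 CPM in young inputs (median 13.7), 11.6 to 18.98 in old early inputs (median 14.6) and 11.7 to 18.8 in old late inputs (median 15.6), and only 2 of 12 and 2 of 7 lay above the young range.

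**Figure D2:**
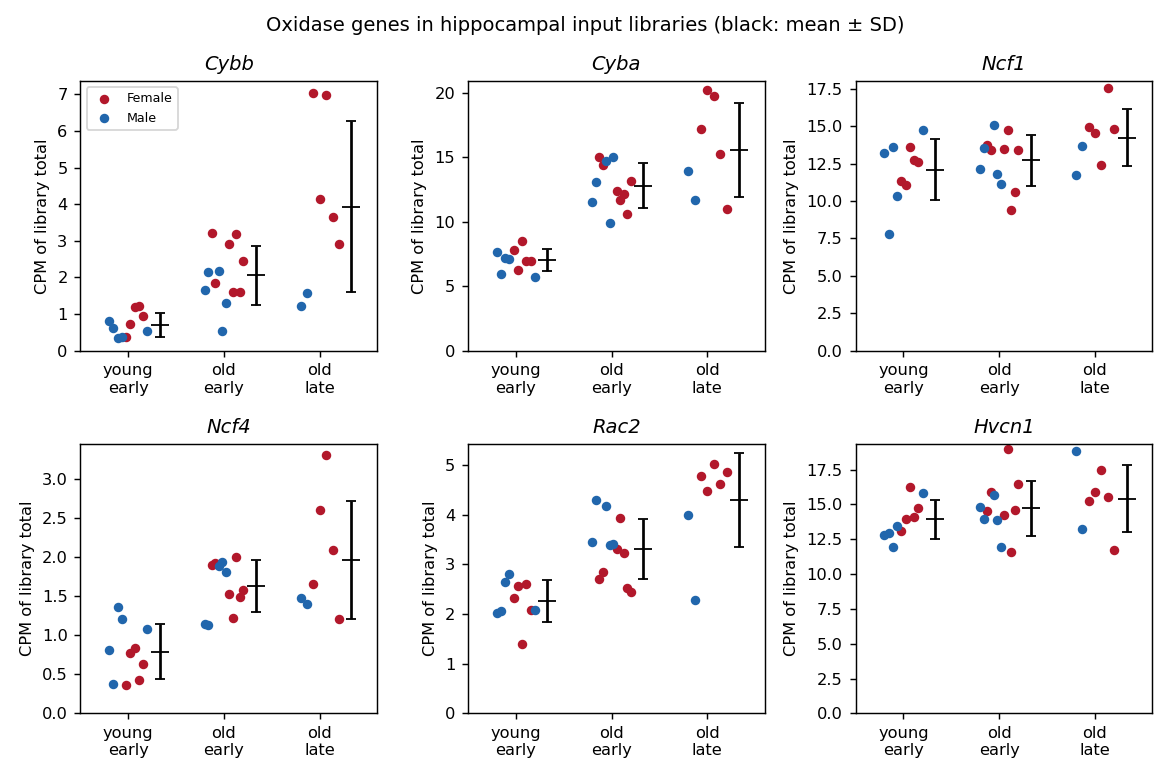
Level of the 6 genes (CPM of the library total) in each of the 29 inputs, by group and coloured by sex, with the mean ± SD of each group in black. The old inputs of Cyba all sit above the young ones, while the 3 groups of Ncf1 and of Hvcn1 overlap.

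In old early against young inputs, 4 of 6 genes were called higher, where 13% of the 14948 genes tested were. The log2 fold change was 1.46 ± 0.26 (SE) for Cybb (edgeR adjusted p 0.000116), 1.05 ± 0.23 for Ncf4 (0.000912), 0.86 ± 0.10 for Cyba (2.08e-07) and 0.54 ± 0.13 for Rac2 (0.00311). Females alone gave 0.45 for Rac2, with an edgeR adjusted p of 0.0954. Ncf1 was at 0.07 (95% interval -0.12 to 0.26) and Hvcn1 at 0.08 (-0.08 to 0.24), so a change of the size seen in Cyba lies outside both intervals. For Hvcn1 this holds for the counts as listed, which may include reads of Tctn1. In old late against young inputs, which share the young libraries, the same 4 genes were called higher, where 17% of all genes were. These groups differ in induction as well as in age. The values were 2.19 ± 0.28 for Cybb (edgeR adjusted p 9.24e-07), 1.32 ± 0.25 for Ncf4 (0.00019), 1.11 ± 0.11 for Cyba (1.3e-08) and 0.92 ± 0.15 for Rac2 (2.69e-05). Ncf1 was at 0.22 (edgeR adjusted p 0.116) and Hvcn1 at 0.13 (0.274). The median over the 6 genes was 0.70 in the first comparison and 1.02 in the second, where the median of all genes was 0.01 in each.

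Markers of several cell types moved with age in the same inputs. Of all genes, 13% rose and 12.6% fell in old early inputs, and 17% rose and 17.5% fell in old late inputs. The microglia list rose in 10 of 11 genes in old early inputs (median log2 change 0.29) and 11 of 11 in old late inputs (0.37). A pan-myeloid list of 12 genes, such as C1qa and Cd68, rose in 12 of 12 in both (0.66 and 0.98). The 4 matched red cell genes were higher in 2 of 4 and 4 of 4 (0.93 and 1.47). Of 3 testable neutrophil genes, S100a9 rose in old early inputs and none was called in old late ones. Of 2 testable T cell genes, 2 rose in old early inputs (median 0.72) and 1 in old late inputs (0.75). Of 3 testable genes of the monocyte list, Nr4a1 rose and Vcan fell in both age comparisons. Both of these genes were lower in TRAP of the old late animals, and the part of monocytes in their changes in input was not tested. Border macrophage genes had 0 of 8 called in old early inputs, and in old late inputs Ms4a7 rose and Lyve1 fell. Oligodendrocyte genes rose in 5 of 6 and 6 of 6 (0.32 and 0.48). The part of these cells in the changes was not tested. Without old early replicate 5, the library rich in red cell genes, the same number of oxidase genes, 4 of 6, was called.

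Scaled to the microglia list, which moved the median of all genes by -0.31 and -0.42 in the 2 age comparisons, the 6 genes no longer lay on 1 side of 0. In old early against young inputs Cybb (1.14 ± 0.25), Ncf4 (0.73 ± 0.22) and Cyba (0.53 ± 0.10) were higher than the list, where 1.62% of genes were. Ncf1 (-0.25 ± 0.10) and Hvcn1 (-0.24 ± 0.08) were lower, where 73.7% of genes were, and Rac2 was not called (0.22, edgeR adjusted p 0.139). The 11 genes of the list themselves ran from -0.227 to 0.301 here, with 2 called higher and 2 lower. With the median of the list, Ncf1 was at -0.21 and was not called (edgeR adjusted p 0.0735). In old late against young inputs Cybb (1.74 ± 0.27), Ncf4 (0.87 ± 0.25), Cyba (0.67 ± 0.11) and Rac2 (0.49 ± 0.16) were higher, where 1.81% of genes were. Hvcn1 was lower (-0.31 ± 0.09), where 76.2% of genes were, and Ncf1 was at -0.21 (edgeR adjusted p 0.0946). The list genes themselves ran from -0.201 to 0.27, again with 2 called higher and 2 lower. Without young replicate 2, Ncf1 was called at -0.26 (edgeR adjusted p 0.0271). Being higher than the microglia list was not particular to the oxidase genes. On this scale 10 of 12 pan-myeloid genes were higher in old early inputs (median 0.34) and 10 of 12 in old late inputs (median 0.541).

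**Figure D3:**
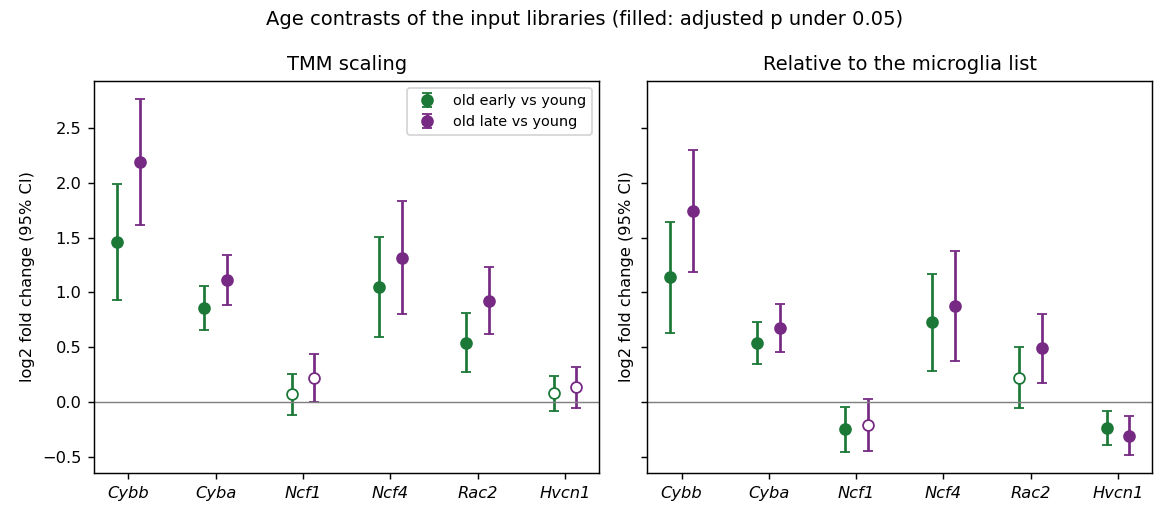
Log2 fold change with its 95% interval of each gene in old early (green) and old late (purple) against young inputs, with the standard scaling (left) and relative to the microglia list (right). Old late and young animals also differ in induction. Filled points have an adjusted p under 0.05; Cybb is highest in all 4 sets, and Ncf1 and Hvcn1 lie near 0 on the left and below 0 on the right.

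Relative to the pan-myeloid list fewer of the genes were called higher. In old late inputs that scaling left Cyba at 0.20 (edgeR adjusted p 0.0925), Ncf4 at 0.41 (0.107) and Rac2 at 0.02 (0.904), while Ncf1 was called lower at -0.65 (1.86e-05), where 91.6% of all genes were called. In old early inputs it left Ncf4 at 0.43 (edgeR adjusted p 0.0577) and Rac2 at -0.11 (0.483), where 90.5% of all genes were called. Cybb was called higher than that list in old late (1.23) and old early inputs (0.80), and Cyba in old early inputs (0.21, edgeR adjusted p 0.0423).

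Between the 2 induction ages in old animals, 0 of 6 genes were called, where 0.0334% of all genes were. DESeq2 and limma voom also called 0 of 6, and 3 of 6 had an unadjusted p under 0.05, as did 11.6% of all genes. These were Cybb at 0.73 ± 0.25 (edgeR adjusted p 0.233), Rac2 at 0.38 ± 0.14 (0.284) and Cyba at 0.26 ± 0.11 (0.33). For Cybb 4 of 7 old late inputs lay above every old early one, for Cyba 4 of 7 and for Rac2 5 of 7. In females alone Rac2 was called at 0.66 (edgeR adjusted p 0.0364), where 1.22% of genes were. Relative to the microglia list, 0 of 6 were called where 8.58% of all genes were. Cybb was at 0.61 there (edgeR adjusted p 0.0913), but it was called without old early replicate 5 (0.66, adjusted p 0.0495) and without old late replicate 7 (0.66, adjusted p 0.0468).

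Cybb had the widest spread inside the groups, and its values are given here by sex. The SD of log2 CPM within groups was 0.70 for Cybb, 0.46 for Ncf4, 0.29 for Rac2, 0.23 for Cyba, 0.22 for Ncf1 and 0.18 for Hvcn1 over the 29 inputs. Cybb in young inputs was at 0.364, 0.719, 0.944, 1.19 and 1.22 CPM in the 5 females and at 0.353, 0.364, 0.543, 0.607 and 0.811 CPM in the 5 males. In old early inputs it was at 1.61 to 3.21 CPM in 7 females (median 2.45), and the 5 males were at 0.542, 1.31, 1.65, 2.15 and 2.19 CPM. The sexes overlapped in both groups.

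In old late animals they did not overlap. The 5 female inputs were at 2.90, 3.66, 4.15, 6.99 and 7.03 CPM of Cybb and the 2 male inputs at 1.22 and 1.59 CPM. In TRAP the same females were at 39.2, 48.7, 66.2, 116 and 104 CPM and the males at 20.99 and 16.5 CPM. The 2 females highest in input, replicates 3 and 5, were also highest in TRAP.

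**Figure D4:**
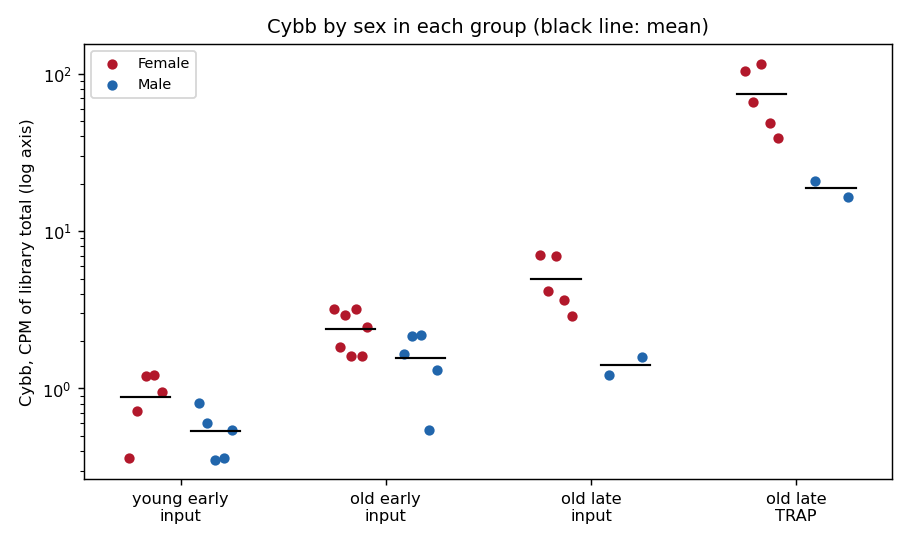
Level of Cybb (CPM, log axis) in each library by group and sex, with the mean of each set as a black line. The female mean lies above the male mean in all 4 groups, and the 2 sexes separate fully in the old late inputs and the TRAP libraries.

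Over all 29 inputs, with group in the model, the male minus female log2 difference of Cybb was -0.94 ± 0.23, with an unadjusted p of 0.000253 and an edgeR adjusted p of 0.088. Of the 6 genes 0 were called, where 0.174% of all genes were, and limma voom called 0. DESeq2 called Cybb (-0.93, adjusted p 0.0152), where it called 0.428% of all genes, and edgeR did so without young replicate 5 (-0.99, adjusted p 0.0439). In old inputs alone Cybb was at -1.02 ± 0.28 (edgeR adjusted p 0.101) and 0 of 6 genes were called, where 0.238% of all genes were. The other 5 genes lay between -0.12 and 0.04 over all inputs, with adjusted p from 0.6 to 0.967.

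In the 7 TRAP libraries all 6 genes were lower in the 2 males, and 0 were called with edgeR, where 0.061% of all genes were. All 6 had an unadjusted p under 0.05, as did 13.5% of all genes. Cybb was at -2.02 ± 0.44 (edgeR adjusted p 0.171), and the other 5 ran from -0.66 for Hvcn1 to -0.32 for Ncf1, with adjusted p of 0.259 to 0.353. The microglia list had a median of -0.17 and the pan-myeloid list one of -0.49 in the same fit, with 0 genes called in either. DESeq2 called Cybb (-2.02, adjusted p 0.00713), where it called 2.47% of all genes, and limma voom called 0. Without TRAP replicate 7, a female, edgeR called Cybb as well (-2.19, adjusted p 0.0188). These values rest on 2 male animals.

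Whether the change with age differed between the sexes was tested in the 22 inputs of the Early Induction groups. With edgeR 0 of 6 genes were called, where 0% of 14953 genes were, and 0 of 6 had an unadjusted p under 0.05, where 15.4% of all genes did. DESeq2 and limma voom also called 0 of 6. The largest interaction was that of Ncf4, at -0.76 ± 0.41 (edgeR adjusted p 0.375). Cybb had one of 0.05 with a 95% interval of -0.88 to 0.98.

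Other genes of the oxidase family and its partners were read from a fixed list of 12. Rac1, the Rac GTPase made in most cells, was at 0.56 ± 0.06 in TRAP against input, beside 4.10 for Rac2, and Rap1a, a small GTPase that copurifies with the cytochrome, was at 0.72 ± 0.09. Cybc1, the chaperone of the gp91phox and p22phox pair, was at 1.26 ± 0.08 in TRAP and was not called with age (0.08 and 0.04).

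The oxidases of other tissues were near the limit of detection. The mean level of Nox1, Nox3 and Nox4, catalytic relatives of Cybb, was at most 0.116 CPM in every group, and Noxa1 was listed at 0 in all but 1 of 36 libraries. Duox1 and Duox2 were at means of 0.163 to 0.458 CPM. Noxo1, the organizer used by Nox1, was at means of 2.05 to 2.23 CPM in the 4 groups and was not called in any of these comparisons. Duoxa1, a maturation factor of the dual oxidases, was at 0.981 to 2.11 CPM in TRAP and at 0 to 0.246 CPM in the matching inputs (log2 fold change 4.21 ± 0.43, edgeR adjusted p 2.59e-07). Of the 12 genes, 4 could be tested in the inputs. There Rac1 (0.12) and Rap1a (0.16) rose in old early inputs and Rac1 (0.16) in old late inputs, and 4 of 5 tested rose in TRAP. Of all genes, 13% rose in old early inputs, 17% in old late inputs and 30.4% in TRAP.

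Of the genes that act upstream of the oxidase, 25 of 26 were tested. In old early inputs 10 rose and 3 fell, and in old late inputs 11 rose and 4 fell, with medians of 0.08 and 0.13. Of all genes 13% rose and 12.6% fell in the first comparison, and 17% and 17.5% in the second. The adaptors Tyrobp (0.95 and 1.19) and Fcer1g (0.82 and 1.06), which pass signals from immune receptors, and the integrin chain Itgb2 (0.72 and 0.99) rose most in old early and old late inputs. Vav2 (-0.26 and -0.26) and Tiam1 (-0.15 and -0.24), exchange factors that load Rac, and the kinase Prkca (-0.17 and -0.30) fell. In TRAP 20 of 25 were higher and 0 lower, where 30.4% of all genes were higher, led by Fcer1g (4.68), Tyrobp (4.45) and the kinase Btk (4.35). Relative to the microglia list, 4 of 25 were higher and 14 lower in old early inputs, and 3 higher and 13 lower in old late inputs. On that scale 1.62% of all genes were higher and 73.7% lower in the first comparison, and 1.81% and 76.2% in the second.

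Of 10 transcription factors known to act on phagocyte genes, 4 rose and 1 fell in old early inputs, and 5 rose in old late inputs, where 13% and 17% of all genes rose. Irf8 was at 0.90 ± 0.11 and 1.16 ± 0.13, and Spi1, which encodes PU.1, at 0.66 ± 0.11 and 0.83 ± 0.12. Elf1 rose in old early inputs (0.28), Rela in old late inputs (0.30), and Cebpb fell in old early inputs (-0.57). All 10 were higher in TRAP, led by Spi1 (4.57 ± 0.16), Irf8 (4.196 ± 0.19) and Runx1 (3.77 ± 0.17). Of 30 genes that handle oxidants, 27 were tested, and 10 rose in old early and 12 in old late inputs with 0 falling, beside the same shares of all genes. Examples are the heme oxygenase Hmox1 (0.49 and 0.68), the cystine transporter Slc7a11 (0.34 in old early inputs), the glutathione reductase Gsr (0.33 in old early inputs), the peroxidase Gpx3 (0.65 in old late inputs) and the transcription factor Nfe2l2 (0.43 in old late inputs). Relative to the microglia list 0 of these 27 were higher in either comparison, where 1.62% and 1.81% of all genes were. In TRAP 11 were higher, led by Txnip (2.29), Nfe2l2 (2.05) and Gpx1 (1.83), and 9 lower, led by Nqo1 (-1.23), Sod3 (-0.84) and Slc7a11 (-0.82), where 30.4% of all genes were higher and 28.8% lower.

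Correlations among the 29 inputs are given as descriptions. After group means were removed, the Pearson correlations of log2 CPM between the 6 genes ran from -0.08 (Rac2 and Hvcn1) to 0.52 (Cybb and Cyba). Ncf4 and Cyba had the next highest value, 0.41. The libraries share tissue and differ in depth and in sex, and differences by sex were not removed. Among the 14127 other genes tested with an average log2 CPM above 0, C3ar1, the receptor of complement C3a, was most like Cybb (0.86), followed by Spp1 (0.71) and C1qa (0.71). Vim (0.80), Rarres2 (0.80) and the lysozyme gene Lyz2 (0.77) were most like Cyba. The genes most like the other 4 were Gpt2 for Ncf1 (0.65), 4930429B21Rik for Ncf4 (0.65), Dusp12 for Rac2 (0.71) and Homer3 for Hvcn1 (0.70). Each is the highest of 14127 values over 29 libraries, and none was tested. The correlation with the microglia list was 0.49 for Cybb, 0.47 for Hvcn1, 0.42 for Cyba, 0.31 for Ncf4, 0.10 for Rac2 and 0.00 for Ncf1.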

How the data were processed

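The deposited table gives each gene an estimated count (expected count, not normalized by the authors), with a column for each of the 36 libraries. Of its nonzero values, 76.6% were not whole (tolerance 0.001). The submitters' processing notes name mm10 and DESeq2; the aligner and counter are not given in the sources used here. Libraries were grouped by the labels and came from separate animals within each group. Pairs within a group differed by more than counting noise (chi-square per degree of freedom of at least 3.66). The animal numbers of the labels tie each TRAP library to its input (correlation of same-animal deviations 0.308 to 0.47, against a median of -0.085 between other animals).

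Rounded counts of all genes entered edgeR 4.0.16 in R 4.3.3 across all genes (filterByExpr, minimum count 10, TMM, glmQLFit, glmQLFTest, Benjamini-Hochberg, threshold 0.05). Inputs were fitted together with group and sex, and TRAP against input on 14 libraries with sex. Levels are CPM of the library total. SE and 95% intervals derive from the F statistic. For values relative to a list, effective library sizes were multiplied by the list's geometric mean level. Alternatives used DESeq2 1.42.0, limma 3.58.1, other scalings and filters, females only, an animal block and each library left out. The fits were tested on simulated data. Named genes were the 6 oxidase genes, the list of other oxidase genes by level, and the 3 largest called changes in each direction of the 3 pathway lists (average log2 CPM above 1); the 3 genes most like each of the 6 were found by correlation. S100a9, Blnk, Cd79b, Cxcr2, Ccr2, Ly6c2, Vcan, Nr4a1, Ms4a7 and Lyve1 were named after their values were seen. The 6 genes and all lists were chosen with earlier results of these data known. One oxidase gene is not reported here.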

Additional observations from a re-analysis of the deposited data

Results flagged for a closer look

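Rac2 in 2 libraries lay far from the rest of its group, by a ratio of the gap to the nearest library over the whole range of the group. In old late input replicate 2, a male, Rac2 was at 2.28 CPM, and the other 6 inputs of that group were at 4.00 to 5.03 CPM. In young input replicate 7, a female, it was at 1.40 CPM, and the other 9 were at 2.03 to 2.80 CPM. The ratio was computed for 24 sets of values, the 6 genes in 3 groups and their TRAP to input ratios, and chance alone would pick out about 1.2. The 3 groups were the young inputs, the old late inputs and the TRAP libraries. Old early inputs were not checked in this way. Without either library Rac2 was still called higher in old inputs.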

How the results depend on the processing

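The 3 main counts, 6 of 6 genes higher in TRAP and 4 of 6 in each age comparison, were the same under DESeq2, limma voom, 3 other scalings, no filter and no sex term, and fell to 3 in females alone for old early inputs. Leaving out each library in turn gave 6 to 6, 4 to 4 and 4 to 4. With the animal as a replicate block, the paired fit called 6 of 6, with 3.993 for Cybb, 4.03 for Cyba, 4.35 for Ncf1, 4.08 for Ncf4, 4.09 for Rac2 and 3.21 for Hvcn1, and 2 of 6 relative to the microglia list. The block changed no call.

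Counts that moved were those of weaker comparisons. DESeq2 called 1 of 6 by sex in inputs and 1 of 6 by sex in TRAP, and females alone gave 1 of 6 between induction ages. Scaling to the pan-myeloid list gave 1 of 6 in TRAP and 3 of 6 in old late against young inputs. Leaving out 1 library gave 0 to 1 of 6 for sex in inputs and in TRAP, 1 to 2 relative to the microglia list in TRAP, 0 to 1 on that scale between induction ages, and 5 to 6 on it in old late against young inputs.

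Some directions turned. Ncf1 in TRAP relative to the microglia list, which was called, was at -0.013 with the list's median. With limma voom the values that turned were the Cybb interaction (-0.143) and the sex difference of Ncf4 (-0.059) and Rac2 (-0.022). That of Ncf4 was -0.249 in old inputs. Hvcn1 between induction ages was at -0.008 in females. Scaled to the pan-myeloid list, Rac2 in old early inputs, which was not called relative to the microglia list (0.22), was at -0.108, and between induction ages Cyba was at -0.013, Ncf1 at -0.074 and Ncf4 at -0.019. Leaving out 1 library, the interaction ran from -0.102 to 0.278 for Cybb, -0.095 to 0.11 for Ncf1 and -0.082 to 0.04 for Hvcn1. The sex difference ran from -0.04 to 0.106 for Ncf4 and -0.001 to 0.144 for Rac2, and Hvcn1 between induction ages from -0.023 to 0.109. Relative to the microglia list, Ncf4 in TRAP ran from -0.153 to 0.043 and Rac2 from -0.117 to 0.006, and Ncf1 between induction ages from -0.004 to 0.098. The causes were not tested. Depth limits Cybb and Ncf4 in young inputs, where single libraries held as few as 6 counts.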
